A study of Citrus maxima and Citrus sinensis with 12 samples.

Results

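MicroRNAs (miRNAs) of sweet orange (C. sinensis) root tips were compared between seedlings given excess boron and control seedlings, in 6 of the 12 libraries of a study of 2 citrus species. Members were all mature sequences of the deposited count table, each counted once, which gave 126 distinct sequences at 172 loci, all 126 with a count in C. sinensis. Seedlings were 11 weeks old when sand culture in a greenhouse began and received Hoagland's solution for the next 15 weeks. The control group (3 libraries) had 10 µM H3BO3 (boric acid, the boron source) in the solution and the excess group (3 libraries) had 400 µM. No genotype other than the species was given. Small RNA libraries were made from total RNA mixed from 5 replicates and were sequenced single-end. The labels do not say whether libraries of 1 group share plants, so the p-values measure the spread between these libraries, which may be technical. The table holds no mRNA, and the label of the tissue could therefore not be checked against marker genes. The title of the series names lateral root development and miR319 in long-term boron toxicity, and the comparison asks which root-tip miRNAs differ in level after such exposure in C. sinensis.

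Plant miRNAs are cut by Dicer-like enzymes from hairpin transcripts and loaded into Argonaute proteins, where they guide cleavage or translational repression of closely matching mRNAs. Many conserved families act on transcription factors that pattern roots and leaves, and others act on transporters and copper enzymes when nutrients are short. Small RNAs of 24 nt are mostly made by another Dicer-like enzyme and are known for guiding DNA methylation, whereas most miRNAs are 20 to 22 nt long. Boron is needed to crosslink cell-wall pectin, and its excess inhibits root growth in many plants.

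The following sequences carry the comparison and are printed 5′ to 3′, with the seed (bases 2 to 8) in capitals, as the deposited table of identified miRNAs gives them. The copper-related pair is shown first because it had the lowest ratios of 400 to 10 µM.
miR398: uGUGUUCUcaggucgccccug
miR397b-3p: aCCAGCGCugcacucgaucaug
The miR319 group and a near-identical 20-nt miR159 are shown because their sequences differ by few bases and their reads may be shared. The miR159 is 1 edit from the 20-nt miR319, and that edit lies in the seed. miR319-5p is named for the opposite arm of a miR319 hairpin and has another seed. Whether its hairpin also gives a miR319 was not tested.
miR319: aUUGGACUgaagggagcucc
miR319a (scaffold_1_2402): uUUGGACUgaagggagcucc
miR319a (scaffold_3_9221): uUGGACUGaagggagcuccc
miR319a (scaffold_5_23391): uUGGACUGaagggagcuccu
miR319g: uGGACUGAagggagcuccuuc
miR159: aUUGGAGUgaagggagcucc
miR319-5p: gAGCUCUCugaacuccaaguc
The 3 sequences named miR403-3p are shown because 2 are nearly the same and the other, of 24 nt, is not.
miR403-3p (scaffold_3_17634): uUAGAUUCacgcacaaacucg
miR403-3p (scaffold_9_45786): uUAGAUUCacgcacaaacuug
miR403-3p (scaffold_5_25549): aUAAGAGUuugugacuguaucauc
The remaining sequences are those of developmental timing, of the miR477 group, the 24-nt mir7496, and miR3951. The last passed the main test of a difference in boron effect between the species, a call lost in 9 of the settings that leave out 1 library.
miR156k: aUGACAGAagagagagaguac
miR156: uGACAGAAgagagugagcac
miR157: uUGACGGAagauagagagcac
miR477: aCCUCCCUcgaaggcuuccaa
miR477b: aCUCUCCCucaagggcuucucu
mir7496: uUAGUGAAuucugucgauuuggac
miR3951: uUUCUCUUaucguuaucugug
The table places the hairpin windows of miR398 on the minus strand of scaffold 2 at 8093621 to 8093870, of miR397b-3p on the plus strand of scaffold 2 at 32706382 to 32706631, of miR319-5p on the minus strand of scaffold 3 at 48492201 to 48492450, of miR156k on the plus strand of scaffold 1 at 23475310 to 23475559 and of miR3951 on the plus strand of scaffold 1 at 20960909 to 20961158. No build is named for these positions, and no annotation was used to place them in genes. Over all 126 sequences there were 107 distinct seeds, 16 of which were shared, by 35 sequences in all.

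Each sequence counted once, the 10 µM libraries held 282149, 468442 and 321315 counts and the 400 µM libraries 365570, 502947 and 577150. Levels are given as CPM, counts scaled to the size of the library by the trimmed-mean method, in the order of replicates 1, 2 and 3. Pearson's correlation of log2 CPM across sequences was 0.976 to 0.994 within groups and 0.976 to 0.989 between groups, so libraries of a group were hardly more alike than libraries of different groups. The most abundant sequence held 17.8% to 27.98% of the counts. It was miR3951 in replicates 1 and 2 of both groups and an unnamed 20-nt sequence, scaffold_1_3278, in replicate 3 of both. Its share was 24.7% ± 2.96 at 10 µM and 19.97% ± 1.95 at 400 µM (mean ± SD, n = 3). With 3 libraries against 3, an exact two-sided permutation test cannot go below a p of 0.1, which is the value this difference reached (adjusted p = 0.7 over the library quantities). Shares of 20-, 21-, 22- and 24-nt sequences and of sequences starting with U had exact permutation p-values of 0.3 or more.

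Most miRNAs of the root tip were at similar levels in both groups, and no sequence passed the test. Of 120 sequences abundant enough to be tested, 0 (0%) had an adjusted p under 0.05 in edgeR's quasi-likelihood test, where the lowest adjusted p was 0.659. For 6 of 120 (5%) the unadjusted p was under 0.05, a share equal to that threshold. Of these, miR397b-3p, mir7496, miR398, miR403-3p (scaffold_9_45786) and miR8713 had lower values at 400 µM (5 of 120, 4.17%) and miR477 had a higher one (1 of 120, 0.833%). DESeq2 called 1 sequence (0.833%), miR397b-3p, with an adjusted p of 0.0135, and had 7 unadjusted. With the replicate number as a block, edgeR still called 0, while 15 (12.5%) had an unadjusted p under 0.05.

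Changes were small in both directions. The log2 change of 400 over 10 µM had a median of −0.02 and was above 0 for 59 sequences and below 0 for 61. It lay between −0.5 and 0.5 for 111 of 120, and was 1 or more in size for 3, namely miR398, miR397b-3p and miR319-5p. The 95% interval stayed within a 2-fold change either way for 98 of 120 (81.7%) and within 1.5-fold for 43 of 120, with a median SE of 0.21. For the other 22, a 2-fold change lay inside the interval, so a change of that size was not excluded at this depth and spread. Groups did not overlap for 14 of 120 (11.7%), with all 400 µM libraries above all 10 µM libraries for 4 (3.33%) and below them for 10 (8.33%). The 4 were miR319, miR319g, miR319a (scaffold_5_23391) and miR472 (scaffold_8_40213). The 10 were miR398, miR397b-3p, mir7496, miR8713, scaffold_7_36515, scaffold_8_42593, miR473a-5p and the 3 sequences named miR403-3p. For 3 libraries against 3, full separation in either direction has an exact two-sided permutation p of 0.1. The share of 11.7% lay near that value, so separate groups alone do not mark a sequence as changed. Compared between equal replicate numbers, which the labels do not name as pairs, 19 of 120 (15.8%) were higher at 400 µM in all 3 pairs and 22 (18.3%) were lower in all 3. Among those higher in all 3 pairs although their groups overlapped were miR157, miR159, miR172a-5p, miR319-5p, miR477b and both miR165a-3p sequences, and 0 of them passed the test with the replicate block.

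**Figure D1:**
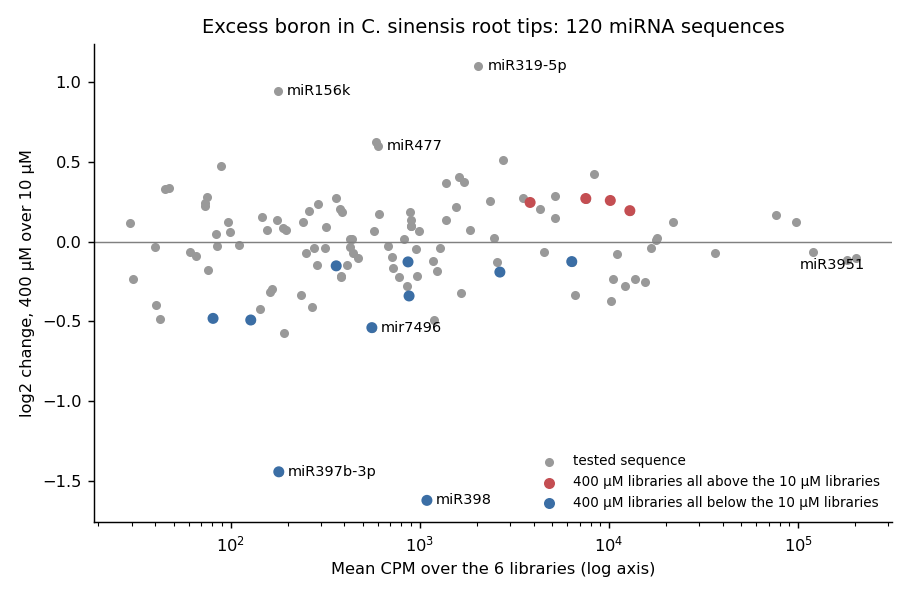
Mean CPM over the 6 libraries (log axis) against the log2 change of 400 over 10 µM H3BO3 for the 120 tested sequences, 1 point each. Colours mark the 14 sequences whose groups do not overlap (4 higher, 10 lower). Most points lie between −0.5 and 0.5, and miR398 and miR397b-3p lie lowest.

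The copper-related miRNAs had the lowest ratios of all tested sequences. miR398 acts on copper/zinc superoxide dismutases and on plantacyanins, and its level is known to rise when copper is scarce. It stood at 1445, 1950 and 1555 CPM at 10 µM and at 125, 579 and 891 CPM at 400 µM. Every 400 µM library lay below every control library, and replicate 1 at 400 µM lay far below the other two. The log2 change was −1.62 (SE 0.58, 95% interval −2.98 to −0.27), which is 3.08-fold lower, with an unadjusted p of 0.025 and an adjusted p of 0.659 in edgeR. Without 400 µM replicate 1 the change was −1.17 and without 400 µM replicate 3 it was −2.22. In these bulk samples, fewer cells of a type and less RNA per cell cannot be told apart. The deposited target table predicts 1 gene for miR398 in C. sinensis, with a plastocyanin-like domain.

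miR397b-3p comes from the 3′ arm of a miR397 hairpin, whose opposite arm gives the miR397 known to act on laccases, the copper enzymes of lignin formation. Its level was 193, 334 and 266 CPM at 10 µM and 39.1, 133 and 114 CPM at 400 µM. As for miR398, the groups did not overlap and replicate 1 at 400 µM was the lowest library. The log2 change was −1.45 (SE 0.41, 95% interval −2.41 to −0.48), or 2.72-fold lower, with an unadjusted edgeR p of 0.00939. It ran from −1.74 without 400 µM replicate 2 to −1.11 without 400 µM replicate 1. Between equal replicate numbers the log2 differences were −2.30, −1.32 and −1.22 for miR397b-3p and −3.53, −1.75 and −0.80 for miR398. Over all settings the adjusted p of miR397b-3p ranged from 0.00565 to 0.966. Both members of the copper and laccase list were thus lower, and together they held 0.189% of the counts at 10 µM and 0.0621% at 400 µM.

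**Figure D2:**
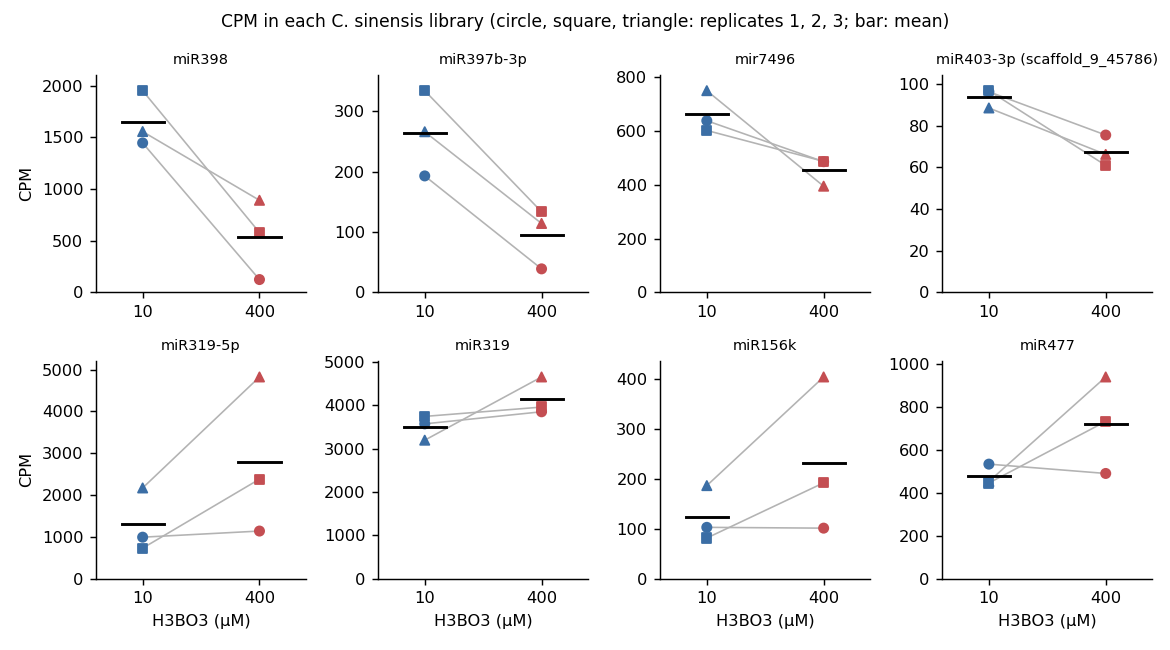
CPM of 8 sequences in each library at 10 and 400 µM H3BO3, with replicates 1, 2 and 3 as circles, squares and triangles, equal numbers joined by a line and a bar at each mean. miR398, miR397b-3p, mir7496 and miR403-3p (scaffold_9_45786) have no 400 µM library inside the control range. miR319 lies above it in all 3, and the highest values of miR319-5p and miR156k are in replicate 3 at 400 µM.

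All 6 sequences named miR319 had a log2 change above 0, with a median of 0.23, against 59 of 120 among all sequences, and 0 passed the test. miR319 acts on TCP transcription factors, which limit cell division in growing organs. The 20-nt miR319 had 3575, 3747 and 3198 CPM at 10 µM and 3854, 3962 and 4657 CPM at 400 µM. Its groups did not overlap, but the nearest libraries of the groups were close, and the log2 change was 0.25 (SE 0.13, 95% interval −0.06 to 0.55). miR319a (scaffold_5_23391) had 7862, 7240 and 5425 CPM against 8390, 8327 and 8046 CPM, and miR319g, the most abundant of them, 12559, 12363 and 11184 CPM against 14428, 13155 and 13731 CPM. Their log2 changes were 0.27 (SE 0.15) and 0.19 (SE 0.11), with every 400 µM library above every control library. The other 20-nt forms, miR319a of scaffold_3_9221 and of scaffold_1_2402, had changes of 0.21 and 0.15 with overlapping groups. Their sequences differ by few bases, so reads of one may have been counted for another, and the 5 are not independent observations. All 6 stayed above 0 in each of the 20 settings that hold 1 entry per sequence, and the median of the family was lowest, at 0.10, without 10 µM replicate 3.

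miR319-5p, named for the opposite arm, had the highest log2 change of all tested sequences and also the widest interval. Its level was 994, 732 and 2171 CPM at 10 µM and 1141, 2382 and 4824 CPM at 400 µM. The groups overlapped, because replicate 3 of the controls lay above replicate 1 at 400 µM, and in both groups replicate 3 was the highest. The log2 change was 1.10 (SE 0.58, 95% interval −0.25 to 2.46). The estimate was 0.44 when 400 µM replicate 3 was left out and 1.65 when 10 µM replicate 3 was. With DESeq2 and the replicate block together, the adjusted p was 0.00565 and the log2 change 1.04, and in edgeR the adjusted p was 0.659. The deposited target table predicts 1 C. sinensis gene for it, of the ABC1 family.

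The miR159 sequences, which act on MYB transcription factors, are close relatives of miR319. The 20-nt miR159 is 1 edit from the 20-nt miR319 and 3 edits from the nearest sequence named miR159a. It stood at 375, 353 and 669 CPM at 10 µM and 435, 661 and 1042 CPM at 400 µM, with overlapping groups, replicate 3 again highest in both, and a log2 change of 0.62 (SE 0.37). Its 2 predicted targets in C. sinensis carry a Myb-like DNA-binding domain and a protein kinase domain. The abundant miR159a (scaffold_3_17340) had 145634, 122974 and 101050 CPM against 126460, 120545 and 106230 CPM, a log2 change of −0.07 (95% interval −0.46 to 0.33). The list of growth and stress regulators, which also holds miR394 and miR396, had 11 of 15 members above 0, with a median of 0.15 and 0 called. miR396, which acts on growth-regulating factors, had 2 of 5 sequences above 0 and changes of −0.15 to 0.20.

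The 4 sequences of developmental timing all had log2 changes above 0, with a median of 0.42, and none passed the test. miR156 and miR157 act on SBP transcription factors and keep plants in the juvenile phase, and miR172 acts on AP2-type factors. miR156k had 103, 81.8 and 187 CPM at 10 µM and 102, 192 and 405 CPM at 400 µM. Only replicate 3 at 400 µM lay well beyond the control range, and the log2 change was 0.95 (SE 0.53, 95% interval −0.31 to 2.20). The estimate was 0.28 without that library and was 1.32 without 10 µM replicate 3. The 6 genes predicted as its targets in C. sinensis all carry an SBP domain. miR157 had 1135, 1397 and 1948 CPM against 1530, 1969 and 2305 CPM, with overlapping groups and a log2 change of 0.37 (SE 0.24). The more abundant miR156 had 2880, 3526 and 3172 CPM against 2501, 3583 and 5502 CPM. Here too replicate 3 at 400 µM stood apart, and the log2 change of 0.28 (SE 0.27) became −0.07 without it. miR172a-5p, from the arm opposite to the miR172 that acts on AP2-type factors, was at 41.3 to 142 CPM, with a change of 0.47 (SE 0.50) that ran from 0.16 without 400 µM replicate 3 to 1.05 without 10 µM replicate 3.

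**Figure D3:**
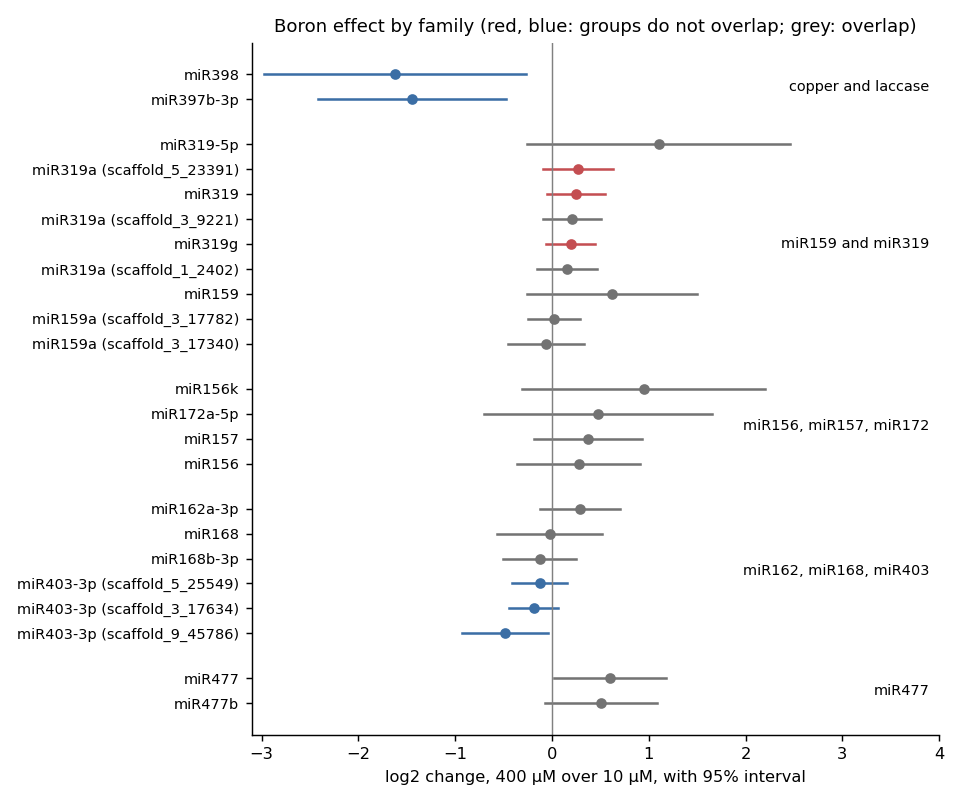
log2 change of 400 over 10 µM H3BO3 with its 95% interval for members of 5 sets of families. Red and blue mark sequences whose groups do not overlap. All 6 miR319 sequences lie above 0 and all 3 named miR403-3p below 0, but the intervals of most of them include 0.

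Families of root development, namely miR319 and miR390 with miR160, miR164 to miR166 and miR171, had 16 of 18 tested members above 0, with a median of 0.17 and 0 called, against 59 of 120 among all sequences. The median was above 0 in all 20 settings, between 0.09 and 0.23. The 18 are not independent observations, since the 6 miR319 sequences are among them and several others differ by few bases. Among all conserved family names of 19 to 22 nt, 31 of 44 were above 0, so the direction was not particular to this list. miR165 and miR166 act on class III HD-ZIP factors, which set the vascular pattern of the root. miR165a-3p (scaffold_9_46062) was at 90019, 100266 and 90906 CPM and then 92631, 109643 and 104034 CPM. miR165a-3p (scaffold_5_27452), which is 1 edit from it, was at 65800, 81068 and 69650 CPM and then 68302, 90557 and 83872 CPM. The groups overlapped for both, and their log2 changes were 0.12 (SE 0.13) and 0.16 (SE 0.15). miR164a, which acts on NAC factors of lateral root formation, had a mean of 572 CPM at 10 µM and 644 CPM at 400 µM, a log2 change of 0.17. miR390a-5p, which triggers small RNAs against auxin response factors, had means of 765 and 682 CPM and a change of −0.17 (SE 0.22).

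miR171 acts on GRAS factors of the root tip, and 1 of the 3 sequences so named, at 3.81 to 9.20 CPM, was not abundant enough to be tested. A sequence named miR9563, which shares the seed of miR171b-3p and is 3 edits from it, was not counted among them. miR171b-3p had 55.0, 51.7 and 98.4 CPM at 10 µM and 70.4, 66.7 and 97.6 CPM at 400 µM. miR171b.3 had 13.8, 34.4 and 36.1 CPM and then 23.4, 30.5 and 38.6 CPM. Both pairs of groups overlapped, with log2 changes of 0.22 (SE 0.31) and 0.12 (SE 0.38), the latter being −0.16 without 10 µM replicate 1.

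The list of auxin signalling, here miR160, miR167 and miR390, had 5 of 7 members above 0 with a median of 0.10. miR167a, which acts on auxin response factors, was its most abundant member, at 22409, 22673 and 17442 CPM against 19683, 25211 and 23314 CPM. The 3 miR167 sequences had changes of 0.10 to 0.14 with overlapping groups. All 3 were below 0 without 10 µM replicate 3, where the median of the list was −0.02.

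Among miRNAs of the small RNA machinery, the 3 sequences named miR403-3p lay below their controls in every 400 µM library. Over all tested sequences this held for 10 of 120 (8.33%), these 3 included. miR403 acts on Argonaute 2, miR168 on Argonaute 1 and miR162 on Dicer-like 1. miR403-3p (scaffold_3_17634) stood at 2952, 2768 and 2762 CPM at 10 µM and 2569, 2375 and 2485 CPM at 400 µM, a log2 change of −0.19 (SE 0.11). miR403-3p (scaffold_9_45786) stood at 96.3, 96.8 and 88.5 CPM and then 75.6, 61.0 and 66.3 CPM, a change of −0.48 (SE 0.19, 95% interval −0.93 to −0.04) with an unadjusted edgeR p of 0.0373. Groups were separate for both, and their sequences are 1 edit apart, so that reads may be shared. The 24-nt miR403-3p (scaffold_5_25549) is 13 edits from the nearest of them and 3 edits from the unnamed scaffold_4_18489, and it had 888, 932 and 895 CPM against 813, 852 and 821 CPM. Its groups did not overlap either, and its change was −0.13 (SE 0.12). All 3 stayed below 0 in the 20 settings. miR162a-3p had 4115, 4498 and 5451 CPM against 4607, 5880 and 6676 CPM, a change of 0.29 (SE 0.18). miR168 had means of 682 and 670 CPM, a change of −0.02 (SE 0.23). In all, 1 of 6 members of this list was above 0, with a median of −0.13, and the sixth, a 24-nt sequence named miR168b-3p, is 16 edits from miR168 and 1 edit from miR8553b (scaffold_3_9559).

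The miR477 sequences, of a family counted here among the conserved ones, had log2 changes above 0 in all 20 settings. miR477 had 533, 446 and 453 CPM at 10 µM and 490, 732 and 939 CPM at 400 µM. Replicate 1 at 400 µM lay inside the control range and the other two above it, giving a log2 change of 0.60 (SE 0.25, 95% interval 0.02 to 1.18) and an unadjusted edgeR p of 0.0441. Leaving out 400 µM replicate 3 gave 0.36, and leaving out 400 µM replicate 1 gave 0.80. miR477b, which is 2 edits from miR473 and 6 from miR477, had 1710, 3190 and 1935 CPM against 2778, 3473 and 3492 CPM. Its change was 0.51 (SE 0.25) and went from 0.34 without 10 µM replicate 1 to 0.86 without 10 µM replicate 2. Of the 6 members of the list of other stress families, 4 were above 0, among them miR3627.2 with a change of 0.40 (SE 0.19), and miR3625-5p was the lowest at −0.49 (SE 0.34).

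Sequences named for families known to trigger phased small RNAs had log2 changes of both signs. miR472 (scaffold_8_40213) had 9372, 8777 and 9643 CPM at 10 µM and 9683, 11054 and 12496 CPM at 400 µM, with separate groups and a log2 change of 0.26 (SE 0.13). miR472 (scaffold_2_8756) had 11372, 13786 and 8819 CPM against 10097, 9998 and 8800 CPM, with overlapping groups and a change of −0.23 (SE 0.17). miR3954, described in citrus, had 8512, 7021 and 6625 CPM against 7265, 5388 and 4885 CPM and a change of −0.34 (SE 0.18). The list of defence triggers had 1 of 5 members above 0, with a median of −0.19. Its members miR482a-5p and miR9863a-3p are of 24 nt.

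Of the list of nutrient supply, 5 sequences were present, of which miR169i-5p.2 was the most abundant. miR395a, which acts on sulfate assimilation, had 75.7, 68.9 and 42.6 CPM against 36.5, 66.7 and 73.6 CPM, a log2 change of −0.06 (SE 0.33). miR827, which acts on phosphate transport, had 144, 79.6 and 197 CPM against 138, 154 and 166 CPM, a change of 0.15 (SE 0.32). Groups overlapped for both, and their intervals were wide. miR169i-5p.2, named for a family that acts on NF-YA factors, had means of 937 and 770 CPM and a change of −0.28 (SE 0.27). Its sequence is 14 edits from miR169m-3p, of the same family name, and 3 edits from miR899. In this list 1 of 4 tested members was above 0.

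Small changes above 0 were more frequent among 20- to 22-nt sequences and changes below 0 among 24-nt sequences, and the difference between the classes was not tested. Of 69 tested sequences of 20 to 22 nt, 44 were above 0 with a median of 0.10, and of 47 of 24 nt, 14 were above 0 with a median of −0.10. These 2 medians kept their signs in all 20 settings, with ranges of 0.06 to 0.16 and −0.12 to −0.04. Of the 39 sequences of 21 nt alone, 22 were above 0 and 17 below, and their median of 0.08 became −0.0082 without 400 µM replicate 3. Since CPM are shares of a library, such medians are relative to each other and say nothing of absolute amounts. The share of counts in 24-nt sequences was 11.8% ± 0.0586 at 10 µM and 10.9% ± 1.61 at 400 µM (mean ± SD, n = 3, exact permutation p = 0.4). Among conserved family names, 31 of 44 sequences of 19 to 22 nt were above 0, and 1 of the 5 of 23 to 25 nt. The other sequences of 19 to 22 nt were evenly split, with 13 above 0 and 13 below and a median of −0.0096, and of the other 45 of 23 to 25 nt, 14 were above 0 and 31 below. Sequences without a family name had 8 of 24 above 0, with a median of −0.07.

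**Figure D4:**
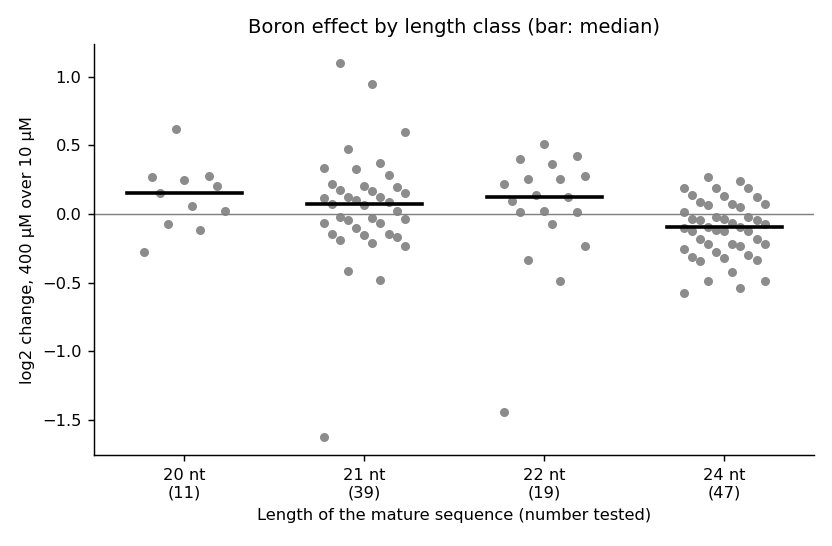
log2 change of 400 over 10 µM H3BO3 for tested sequences of 20, 21, 22 and 24 nt, 1 point each, with a bar at the median of the class. The medians are 0.15, 0.08, 0.13 and −0.10, and the spread within each class is wider than the distance between them.

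Separate groups were also seen for the 24-nt sequences mir7496, miR8713 and scaffold_7_36515. mir7496 had 636, 600 and 748 CPM at 10 µM and 485, 486 and 394 CPM at 400 µM, a log2 change of −0.54 (SE 0.16, 95% interval −0.92 to −0.16) with an unadjusted edgeR p of 0.0124. miR8713 had 155, 142 and 151 CPM against 120, 116 and 82.8 CPM, a change of −0.49 (SE 0.20). The unnamed scaffold_7_36515 had 967, 1031 and 945 CPM against 886, 760 and 679 CPM, a change of −0.34 (SE 0.15). All 400 µM libraries of these sequences lay below all control libraries, and the fitted levels were 1.45-, 1.41- and 1.27-fold lower. No role is given for them by the deposited tables.

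For several abundant sequences the interval bounded the change closely, and for scaffold_1_3278 it did not. miR3951 had 216140, 239731 and 174484 CPM at 10 µM and 195734, 170657 and 220195 CPM at 400 µM, a log2 change of −0.10 (95% interval −0.51 to 0.30). The unnamed scaffold_1_3278 had 137246, 136938 and 294859 CPM against 153408, 142564 and 229126 CPM. In it replicate 3 of both groups stood apart, and the change of −0.12 had an interval of −0.93 to 0.69. ci-miRN17, a 24-nt sequence without a family, had 37865, 38934 and 35572 CPM against 37891, 35713 and 33316 CPM. Its groups overlapped, and its change was −0.07 with an interval of −0.33 to 0.19. miR396a-5p (scaffold_1_132) had a change of −0.04 with an interval of −0.29 to 0.20, and miR473a-5p one of −0.13 with an interval of −0.37 to 0.12.

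Of the 126 sequences, 6 were too low to be tested: miR171, miR2111a, miR8695, miR9560, miR-RN03 and miR-RN04. miR9560 had 0, 1 and 1 counts at 10 µM and 3, 4 and 4 counts at 400 µM, too few for a ratio. The authors' deposited table lists 11 entries for C. sinensis, 10 sequences once identical ones are counted once, with 6 given as up and 4 as down. A false discovery rate under 0.05 is given there, in the authors' deposited table, for 2 of them: miR398 at a log2 change of −1.60 with a false discovery rate of 0.00545, and miR397b-3p at −1.42 with one of 0.0289. The other entries of the authors' deposited table, such as miR319-5p at 1.15, miR156k at 0.96 and miR477 at 0.63, have a false discovery rate of 0.805 or more. Of its 10 sequences, 4 were not abundant enough to be tested here. The false discovery rates of the authors come from another fit, with loci of the same sequence entered separately. They are therefore not directly comparable with the adjusted p-values given here.

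Whether the response to boron differed from that of pummelo (C. grandis), grown and treated in the same way, was tested as the difference of both log2 changes over all 12 libraries. Of 124 sequences tested, 1 (0.806%) passed an adjusted p under 0.05 in edgeR, miR3951, and 6 (4.84%) had an unadjusted p under 0.05. Scaled over 12 libraries, miR3951 of C. sinensis stood at 228470, 258839 and 181769 CPM at 10 µM and 221435, 184494 and 242814 CPM at 400 µM. In C. grandis it stood at 711, 589 and 4175 CPM at 10 µM and 28.4, 101 and 91.4 CPM at 400 µM. The C. sinensis groups overlapped and the C. grandis groups did not, and the difference of the log2 changes, C. sinensis minus C. grandis, was 4.61 (SE 0.95, adjusted p = 0.0477). Without 10 µM replicate 3 of C. grandis, the highest of its control libraries, the difference was 3.17 with an adjusted p of 0.00832. The call was lost in 9 of the settings that leave out 1 library, with adjusted p up to 0.182, and with every locus as an entry, at 0.0540. miR3951 is 2 edits from miR9563a-3p, which had means of 52314 and 71326 CPM in C. grandis at 10 and 400 µM. In C. sinensis the means of miR9563a-3p were 1522 and 1843 CPM. Whether reads of one were counted for the other was not tested.

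ci-miRN17 had the same arrangement of levels, with 143, 79.3 and 399 CPM in C. grandis at 10 µM and 17.0, 24.5 and 49.8 CPM at 400 µM, and a difference of 2.78 (SE 0.71, adjusted p = 0.119). For the sequences with the largest changes in C. sinensis the difference was not detectable, and its intervals were wide. It was −0.36 for miR398 (95% interval −2.35 to 1.62), −0.43 for miR397b-3p (−2.54 to 1.69) and 0.06 for miR319-5p (−1.87 to 1.99). In C. grandis miR398 stood at 280, 291 and 1340 CPM at 10 µM and at 229, 267 and 327 CPM at 400 µM, all on the 12-library scale. miR398 was thus higher in the C. sinensis controls, at 1528, 2105 and 1620 CPM on that scale, than in each C. grandis library. mir7496 was nearly absent from C. grandis, with at most 4.47 CPM in a library.

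**Figure D5:**
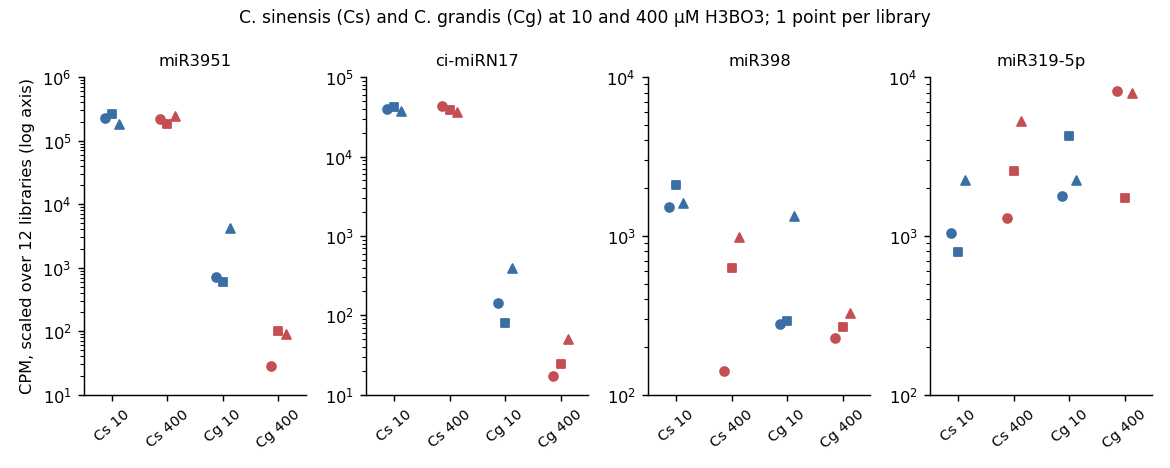
CPM scaled over all 12 libraries (log axis, range set per panel) of miR3951, ci-miRN17, miR398 and miR319-5p in C. sinensis (Cs) and C. grandis (Cg) at 10 and 400 µM H3BO3, 1 point per library. miR3951 and ci-miRN17 are at like levels in both C. sinensis groups and lower in C. grandis, most of all at 400 µM.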

How the data were processed

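Per the labels, each TruSeq small RNA library held pooled RNA of 5 replicates and was read single-end on an Illumina HiSeq. DESeq is the only tool named in the submitters' processing notes, and no other step (trimming, alignment, calling of miRNAs, build) is described there. The deposited expression table holds counts per miRNA locus, without normalisation. Of its mature sequences, 27 had more than 1 locus, and for 13 of these the loci had identical counts in all 12 libraries. For the others the counts differed between loci. A sequence of several loci entered by its locus with the highest total, which left 126 of 172 loci. The authors' deposited table of boron-responsive miRNAs holds log2 fold changes, each with its p-value and false discovery rate, used only for comparison. The deposited table of identified miRNAs holds a prediction score, not used for any test, with window coordinates and mature sequences, and the deposited target table was used for predicted genes.

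Counts of the 6 C. sinensis libraries were fitted with edgeR 4.0.16 (R 4.3.3) by its quasi-likelihood test, with trimmed-mean scaling, filterByExpr at a count minimum of 10 and Benjamini-Hochberg adjustment over the sequences tested. All tests were two-sided with a threshold of 0.05, and standard errors are approximate. The biological coefficient of variation was 20.6%, and 30.3% over all 12 libraries. The difference from C. grandis was the interaction over 12 libraries. Library quantities had exact permutation tests. The fit was tested on simulated data. A chi-square test found every pair of libraries to differ beyond counting error.

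Deviations from the group means correlated at 0.386, 0.339 and 0.299 between equal replicate numbers of both levels and at 0.0557 or less between unequal ones, which is a hint from the data that numbers pair the libraries. The labels do not say so, and the block was an alternative. Deviations within a group cancel out, so positive correlations for equal numbers by themselves lower those for unequal ones. Other alternatives were DESeq2 1.42.0 (no independent filtering), scaling by median of ratios or by totals, other filters, loci summed or kept apart, all 12 libraries in 1 fit and each library left out.

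Named sequences were those past the test, the 12 with the smallest p, up to 8 per direction with separate groups, the 10 most abundant, all miR319, miR171, miR397 and miR398, the 3 most abundant of each family list and those with the narrowest and widest intervals; the others (miR159, miR164a, miR168, miR390a-5p, miR479, miR3625-5p, miR8553b and the 24-nt miR403-3p) were chosen after their values were seen. Members, family lists and this rule were chosen with earlier results of these data known.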

Additional observations from a re-analysis of the deposited data

Results flagged for a closer look

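The boron effect on miR3951 differed between the species in the test of the difference itself over 12 libraries (log2 difference 4.61, C. sinensis minus C. grandis, adjusted p = 0.0477 in edgeR's quasi-likelihood test). Its level overlapped between boron levels in C. sinensis and was lower in all 3 libraries at 400 µM than in all 3 at 10 µM in C. grandis. In the control libraries its mean was 223026 CPM in C. sinensis and 1825 CPM in C. grandis, so the C. grandis effect is that of a sequence far less abundant there. The part of single libraries in this call is given with the settings that leave 1 out, and no cause was tested.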

How the results depend on the processing

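The count of C. sinensis sequences past the threshold was 0 in edgeR and also 0 under both other scalings, both other filters, summed or separate loci, the replicate block, all 12 libraries and each library left out. It was 1 with DESeq2 (miR397b-3p), 2 with DESeq2 and the replicate block (miR397b-3p and miR319-5p) and 1 with every locus an entry and the replicate block (miR397b-3p); combinations with the block were chosen after seeing the data. Without 400 µM replicate 1, 24 sequences had an unadjusted p under 0.05 against 6, and the lowest adjusted p was 0.156; it was 0.0910, for miR479, without 10 µM replicate 2. The replicate block changed no other call in C. sinensis.

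Signs turned for some named sequences, none of them past the test. They turned with every locus an entry for miR396 (−0.048), miR5296 (−0.065) and miR3627.1 (−0.061), and with the replicate block added to that for the same sequences (−0.053, −0.038 and −0.027). miR5296 was at −0.0022 with a mean CPM of at least 10. With all 12 libraries miR396a-5p (scaffold_1_132) was at 0.0180, and with their replicate block at 0.0178, with scaffold_1_3278 at 0.012 and miR159a (scaffold_3_17340) at 0.0072. Leaving out 1 library gave log2 changes of −0.074 to 0.50 for miR156, −0.23 to 0.073 for miR159a (scaffold_3_17340), −0.025 to 0.21 for miR167a, −0.019 to 0.28 for miR167b-3p, −0.0096 to 0.26 for miR167h, −0.28 to 0.0021 for miR168b-3p, −0.16 to 0.35 for miR171b.3, −0.16 to 0.19 for miR3627.1, −0.26 to 0.016 for miR3951, −0.30 to 0.15 for miR395a, −0.089 to 0.20 for miR396, −0.086 to 0.015 for miR396a-5p (scaffold_1_132), −0.077 to 0.19 for miR5296, −0.56 to 0.28 for miR530-5p, −0.13 to 0.44 for miR827 and −0.36 to 0.32 for scaffold_1_3278. The cause was not tested.

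For the difference between species the count of 1 became 2 with library totals, with DESeq2 and with the replicate block (miR3951 and ci-miRN17), 0 with every locus an entry, and 0 to 2 with 1 library left out. With library totals the median difference over all sequences was 0.15, against 0.01. Leaving out 1 library gave differences of 3.17 to 5.01 for miR3951, 1.96 to 3.30 for ci-miRN17, −1.44 to 0.50 for miR397b-3p and −1.45 to 0.087 for miR398. A left-out library leaves 2 in its group, and 3 libraries a group limit what any of these tests can call. For sequences of few counts, such as miR171b.3 with 4 to 21 in a library, counting error adds to the spread.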
